A study of Capra hircus with 12 samples.

Results

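The lysyl oxidase family has 5 members, LOX, LOXL1, LOXL2, LOXL3 and LOXL4, which were taken by gene name from the count tables of goat temporomandibular joint (TMJ) cells. Each name matched 1 of the 28910 rows in each table, and all 5 members had enough counts to be tested in every comparison. The 12 RNA-seq libraries came from superficial layer cells (SLC) and middle cartilage layer cells (MLC) of the condyle. For each layer 3 libraries bear the label IL-1β and 3 the label IL-1β+LOXL2, and the latter are called LOXL2-labelled here. The comparisons ask how the family differed between the 2 layers of inflamed cells and whether it differed when LOXL2 was supplied. All 12 libraries had IL-1β, an inflammatory cytokine, so no untreated level is given here.

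The cells were obtained from young female goats at abattoirs, released with collagenase, frozen, and expanded in serum over several passages. According to the methods, LOXL2 was delivered by an adenovirus left on the cells overnight, and IL-1β was then added for a short time before harvest. No source states whether the cells labelled IL-1β received an empty virus before sequencing, so LOXL2 and the virus itself cannot be told apart. The layers were separated and digested in different steps. Layer therefore cannot be told apart from anything else that differed between the SLC and MLC cultures. No source says how many animals stand behind the replicates, so p-values measure the spread between these libraries, which may be technical.

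Lysyl oxidases are copper enzymes that oxidize the side chain of lysine and hydroxylysine in collagen and elastin, and the aldehydes so formed react into the crosslinks that give fibers their strength. All members share the catalytic domain and its quinone cofactor, which is built from the enzyme's own residues. LOX and LOXL1 are made with a propeptide that BMP1-type proteases remove, whereas LOXL2, LOXL3 and LOXL4 carry scavenger receptor cysteine-rich domains before the catalytic domain. In cartilage the crosslinks hold together a network built mainly of type II collagen, and in fibrocartilage of type I collagen as well.

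The 5 genes lie on different chromosomes of the goat assembly ARS1.2, and RefSeq lists all of them as protein-coding. LOX is at chr7:78877397-78893270, LOXL1 at chr21:34103774-34128708, LOXL2 at chr8:70222328-70337511, LOXL3 at chr11:9933775-9951645 and LOXL4 at chr26:32257057-32278923. LOXL2 is the longest of the genes at 115 kb, and the others span 15.9 to 24.9 kb. The end of LOXL3 overlaps 229 bases of HTRA2, a mitochondrial protease gene, which had a mean of 827 counts and was not called in any comparison. No other member overlaps an annotated gene.

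The libraries held between 14158607 and 28931652 counts. With IL-1β the range was 18751323 to 22123593 in SLC and 14158607 to 15330697 in MLC. With IL-1β+LOXL2 it was 21080134 to 28931652 in SLC and 14188227 to 19459045 in MLC. Chondrocyte markers summed to 609 to 714 CPM (counts scaled to a common library total) in MLC with IL-1β but to 137 to 140 in SLC with IL-1β, where COL2A1 and COL9A1 had no count. The sum of the 4 superficial layer markers in the tables went the other way. It was 251 to 286 CPM in SLC and 53.0 to 56.1 in MLC with IL-1β. Most of it was ABI3BP (means of 240 in SLC and 36.6 in MLC), and THBS4 was also higher in SLC. PRG4, the lubricin gene that defines the joint surface, had a higher mean in MLC (5.97, against 4.39 in SLC). CILP did too (0.515, against 0.295). PRG4 stayed between 3.65 and 7.25 CPM in all 12 libraries. The fibroblast list, which includes COL1A1 and COL3A1, summed to 44356 to 55514 CPM over the 12 libraries. Smooth muscle markers, mostly ACTA2, summed to 1846 to 2403 CPM in SLC and 1111 to 1637 in MLC. Blood cell markers summed to 55.4 to 141 CPM, mostly CD14, and PTPRC had no count in any IL-1β library. Endothelial, bone, skeletal muscle and fat markers stayed at or under 11.1 CPM in every library. These marker differences run alongside every layer difference below, and their part in it was not tested. Markers also moved with treatment. In SLC the superficial markers summed to 157 to 222 CPM in the LOXL2-labelled libraries, below the IL-1β range. That drop was mostly ABI3BP (means from 240 to 151), while THBS4 went from 22.1 to 27.8 and PRG4 from 4.39 to 4.42. In MLC the smooth muscle markers summed to 1328 to 1637 CPM, above the 1111 to 1171 CPM with IL-1β. That rise was mostly ACTA2 (means from 864 to 1256), and CNN1 went from 46.3 to 66.4. The other listed markers had lower means, PDGFRB from 210 to 185, MYH11 from 27.4 to 26.8 and RGS5 from 0.112 to 0.0830. The part of these marker changes in the treatment differences below was not tested. In bulk RNA, fewer cells of a type and less RNA per cell cannot be told apart.

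LOXL2 itself was examined first, since its gene is the one the treatment names. In SLC with IL-1β its normalized counts (counts scaled for library depth and composition over all 12 libraries) were 11583, 11647 and 11894. In the SLC LOXL2-labelled libraries they were 8541, 10124 and 10387. All 3 of these lie below all 3 IL-1β libraries, which is the opposite of a gain on the goat gene. In MLC the counts were 14291, 16294 and 15189 with IL-1β and 15250, 14740 and 13808 in the LOXL2-labelled libraries, so those groups overlapped. Its log2 fold change was -0.27 ± 0.11 (SE) in SLC (adjusted p = 0.106, edgeR) and -0.066 ± 0.086 in MLC (adjusted p = 0.595, edgeR). The count on the goat gene was thus not higher with the supplied LOXL2 in either layer, and every direction for the treatment rests on the labels. The sources used here do not state whether viral transcripts could map to this gene. Across all genes the treatment's log2 fold changes fell with gene length on the genome (Spearman's rho -0.49 in both layers, a description across genes, which are not independent replicates). Once that trend was removed, the value for the long LOXL2 gene was 0.12 in SLC and 0.19 in MLC, neither past the threshold.

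**Figure D1:**
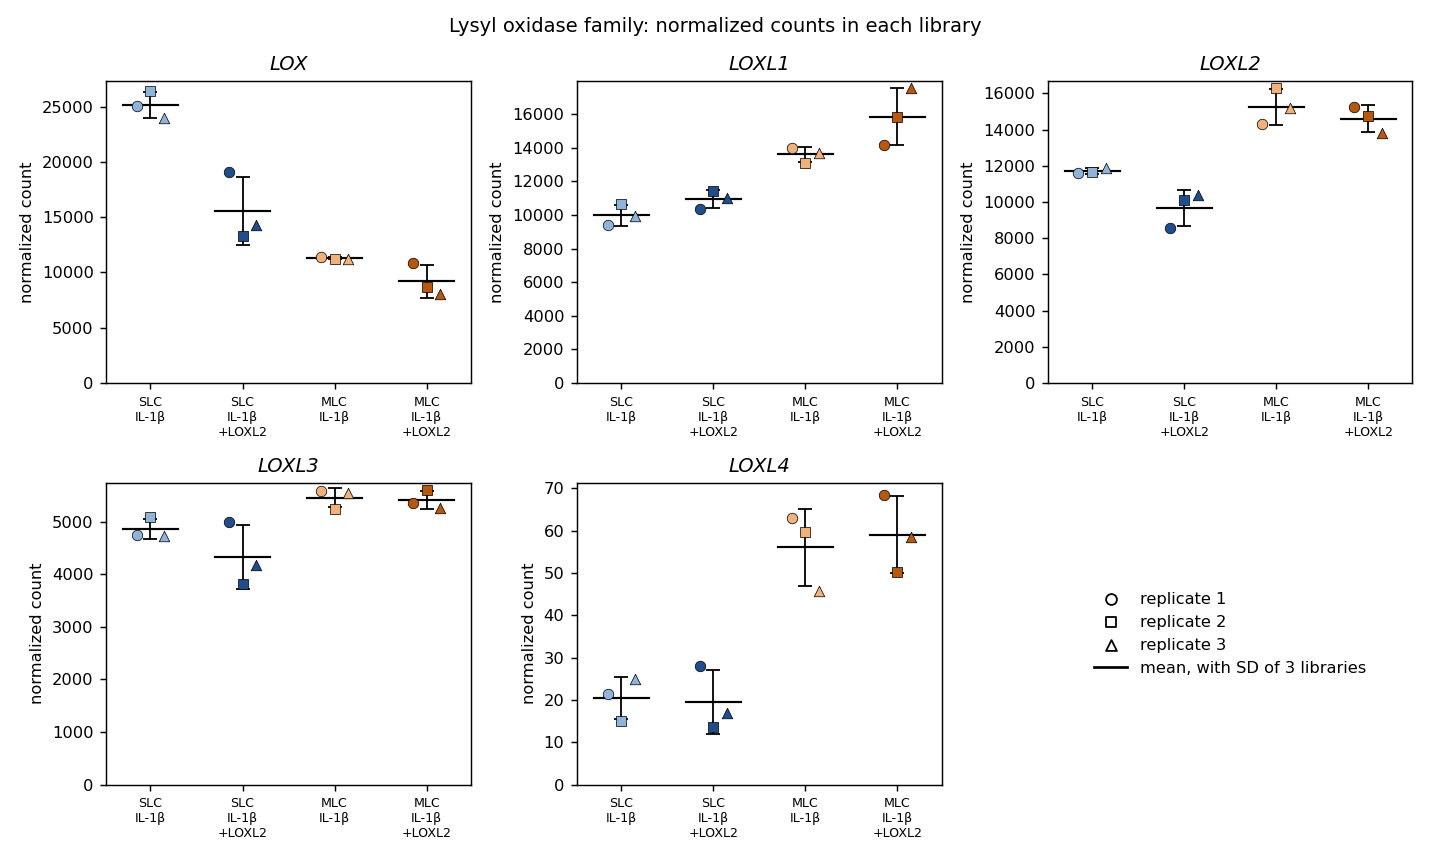
Normalized counts of the 5 members (1 panel each, linear axis from 0) in the 12 libraries, with the mean and SD of 3 libraries per group; marker shape gives the replicate number. LOX steps down from SLC with IL-1β (mean 25137) to MLC in the LOXL2-labelled libraries (mean 9201), while LOXL1, LOXL2 and LOXL4 sit higher in MLC than in SLC.

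The layers differed in all 5 members when both had IL-1β, and LOX went against the other 4. LOX was lower in MLC and LOXL1, LOXL2, LOXL3 and LOXL4 were higher, all past the threshold of 0.05 on the adjusted p (edgeR). In this comparison 46.9% of all tested genes passed (24.2% higher and 22.7% lower in MLC), so a pass by itself is common. The groups did not overlap for any member, as for 56.1% of all genes, and the exact two-sided permutation test gave p = 0.1 for each, the smallest that 3 libraries against 3 allow.

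LOX, the founding member and the main collagen and elastin oxidase of connective tissue, had 25053, 26383 and 23975 normalized counts in SLC with IL-1β. In MLC with IL-1β it had 11421, 11207 and 11249. The MLC libraries sat within a narrow band at less than the lowest SLC value. The log2 fold change, MLC minus SLC, was -1.13 ± 0.061 (adjusted p = 2.50e-09, edgeR), which is 0.455 times the SLC level, with a 95% interval from -1.27 to -1.004.

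LOXL1, the member tied to elastic fiber renewal, had 9391, 10633 and 9969 normalized counts in SLC and 14018, 13108 and 13723 in MLC with IL-1β. Every MLC library was above every SLC library, by a log2 fold change of 0.47 ± 0.064 (adjusted p = 3.25e-05, edgeR). LOXL2, which crosslinks type IV and fibrillar collagens, was also higher in MLC in every library listed above. Its log2 fold change was 0.40 ± 0.064 (adjusted p = 1.27e-04, edgeR), close in size to that of LOXL1.

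LOXL3, known for collagen assembly in the palate and spine, had 4753, 5080 and 4736 normalized counts in SLC and 5585, 5244 and 5545 in MLC with IL-1β. The gap between the highest SLC and the lowest MLC library was small beside the spread within each layer. The log2 fold change of 0.19 ± 0.059 (adjusted p = 0.0167, edgeR) was the smallest of the family, and the call was lost in the fit of all 12 libraries (adjusted p = 0.196). It was also lost without the first SLC, the first MLC or the third MLC library of IL-1β (adjusted p = 0.0600, 0.0668 and 0.0778).

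LOXL4 was close to the limit of detection. It had 21.4, 15.04 and 25.03 normalized counts in SLC and 63.0, 59.6 and 45.8 in MLC with IL-1β. Each MLC library held more than the highest SLC library, and the log2 fold change of 1.48 ± 0.26 (adjusted p = 3.03e-04, edgeR) had the widest interval of the family, from 0.92 to 2.03. LOX, LOXL1, LOXL2 and LOXL4 kept their call in every alternative run for this comparison.

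The same layer comparison in the LOXL2-labelled libraries shares no library with the one above. LOX had 19081, 13277 and 14294 normalized counts in SLC and 10867, 8666 and 8070 in MLC. LOXL1 had 10384, 11422 and 11016 in SLC and 14193, 15831 and 17571 in MLC. LOX was again lower and LOXL1 again higher in every MLC library. LOXL3 had 5002, 3813 and 4169 in SLC and 5354, 5603 and 5267 in MLC. LOXL4 had 28.1, 13.7 and 16.9 in SLC and 68.5, 50.3 and 58.5 in MLC. The layers did not overlap for any member here either, as for 35.1% of all genes.

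In these libraries 4 of the 5 members passed the threshold, against 16.1% of all genes. Same-numbered libraries deviated together here, and with the replicate number as a block the same 4 members passed, with an adjusted p of 0.0743 for LOXL3, against 27.6% of all genes. LOX had a log2 fold change of -0.75 ± 0.19 (adjusted p = 0.0327, edgeR) and that of LOXL1 was 0.55 ± 0.12 (adjusted p = 0.0233, edgeR). LOXL2 was higher in MLC by 0.60 ± 0.12 (adjusted p = 0.0137, edgeR) and LOXL4 by 1.61 ± 0.32 (adjusted p = 0.0139, edgeR). LOXL3 did not pass at 0.33 ± 0.14 (adjusted p = 0.155, edgeR; 95% interval from 0.011 to 0.65). These calls rest on few libraries. No member passed without the third SLC library or without the third MLC library, LOX and LOXL1 alone passed without the first MLC library, and LOXL4 alone passed without the second MLC library. Of all genes 8.09%, 8.38%, 9.78% and 7.92% passed in these fits in turn. Without the first SLC library all 5 members passed, against 32.9% of all genes. No direction changed in any of these fits.

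**Figure D2:**
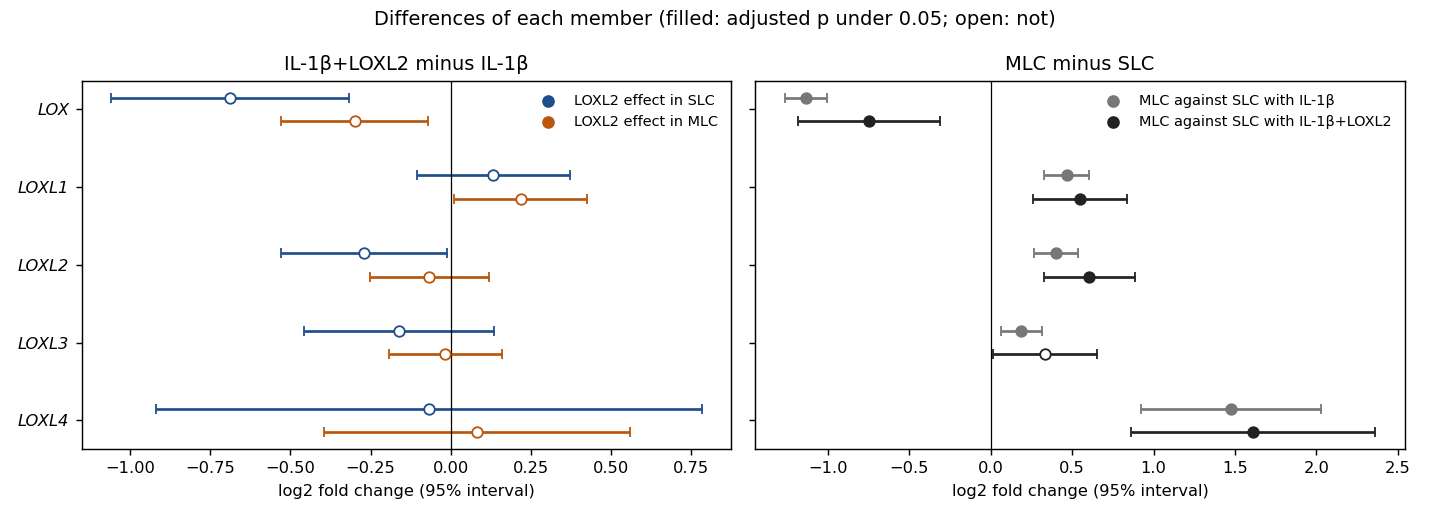
Log2 fold changes of the 5 members with 95% intervals, for the LOXL2-labelled libraries against IL-1β in each layer (left) and for MLC against SLC under each treatment (right); filled points have an adjusted p under 0.05. All left points are open, LOX lies at -1.13 and -0.75 on the right, and only LOXL3 with IL-1β+LOXL2 is open there.

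Within SLC, no member passed between treatments, and neither did any other gene (0% of 14103 tested; 43.3% had an unadjusted p under 0.05 and 32.5% passed with DESeq2). LOX showed the largest difference of the family. Its values, listed above, were lower in each LOXL2-labelled library than in each with IL-1β, a mean of 15551 ± 3099 (SD, n = 3) against 25137 ± 1206 (SD, n = 3). The log2 fold change was -0.69 ± 0.16 with a 95% interval from -1.06 to -0.32, and the adjusted p was 0.0706 (edgeR) or 0.00421 (DESeq2). The first LOXL2-labelled library stood nearest the IL-1β group, and without it LOX was called at -0.87 (adjusted p = 5.05e-05, edgeR). In that fit 61.7% of all genes passed. LOX was also called in the fit of all 12 libraries (-0.67, adjusted p = 0.0152, edgeR), as were 41% of all genes. It was called in 1 of 6 fits without 1 library (adjusted p up to 0.225, edgeR) and in 2 of 7 other alternatives (up to 0.0932, edgeR).

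For the other members in SLC, only LOXL2 joined LOX in having groups that did not overlap, which 49% of all genes also had. Log2 fold changes were 0.13 ± 0.10 for LOXL1, -0.16 ± 0.13 for LOXL3 and -0.068 ± 0.36 for LOXL4 (adjusted p = 0.329, 0.341 and 0.894, edgeR). The interval for LOXL4, from -0.92 to 0.79, shows that at 18 to 33 reads per SLC library a sizable difference in either direction could not be detected. LOXL2 in SLC was called only in the fit of all 12 libraries (-0.25, adjusted p = 0.0480, edgeR), where 41% of all genes passed. LOXL3 was called only without the first LOXL2-labelled library (-0.29, adjusted p = 0.0152, edgeR), where 61.7% of all genes passed.

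Within MLC, no member passed either, while 21.6% of the 13664 tested genes did (27.3% with DESeq2). LOX had a mean of 9201 ± 1473 (SD, n = 3) in the LOXL2-labelled libraries and 11292 ± 114 (SD, n = 3) with IL-1β. All 3 treated values lay below all 3 of the others, although the first replicate came close to them. The log2 fold change was -0.30 ± 0.11 with a 95% interval from -0.53 to -0.069, and the adjusted p was 0.0593 (edgeR) or 0.0399 (DESeq2). Without the first LOXL2-labelled library, LOX was called at -0.43 (adjusted p = 1.25e-04, edgeR), as were 48.1% of all genes. LOX was also called without a filter on low counts (adjusted p = 0.0340) and with the trend on gene span removed (-0.36, adjusted p = 0.0421). Of all genes 18.3% and 13.4% passed in these fits. LOX was called in 1 of 6 fits without 1 library (adjusted p up to 0.221, edgeR) and in 4 of 7 other alternatives (up to 0.195, edgeR). In the fit of all 12 libraries no gene passed.

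LOXL1 in MLC moved the other way, with each LOXL2-labelled library above each with IL-1β. LOX and LOXL1 were the members whose MLC groups did not overlap, as was so for 41.4% of all genes. LOXL1 had a log2 fold change of 0.22 ± 0.095 (adjusted p = 0.111, edgeR). Without the first LOXL2-labelled library it was called at 0.30 (adjusted p = 0.00282, edgeR), as were 48.1% of all genes. LOXL3 and LOXL4 were at -0.016 ± 0.082 and 0.082 ± 0.22 (adjusted p = 0.903 and 0.806, edgeR).

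**Figure D3:**
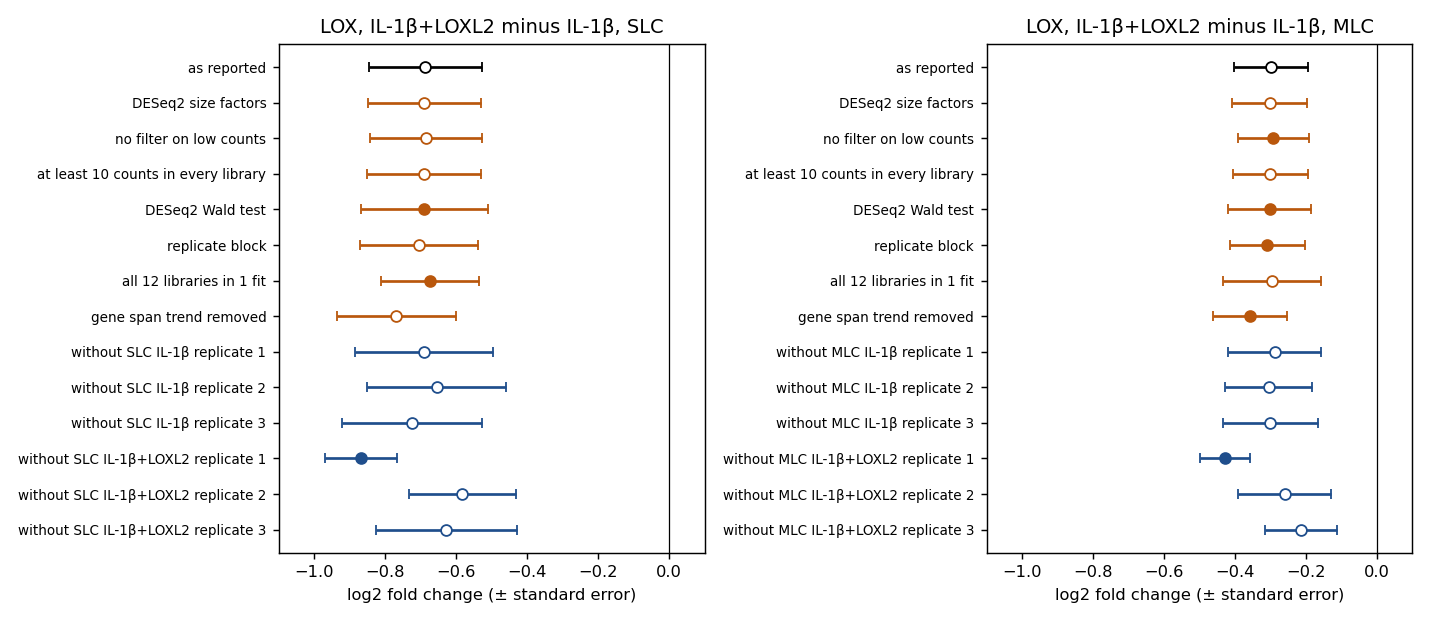
Log2 fold change of LOX with its standard error, IL-1β+LOXL2 minus IL-1β, in SLC (left) and MLC (right) as reported and under each alternative, with blue for fits without 1 library and filled points for an adjusted p under 0.05. Every point is below 0, from -0.87 to -0.58 in SLC and -0.43 to -0.21 in MLC over the fits without 1 library.

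The difference between the layers in the response to treatment was tested as an interaction over all 12 libraries. No member passed, and neither did any of the 14534 genes (0% called by edgeR or by DESeq2, 2.26% at an unadjusted p under 0.05). For LOX the interaction was 0.38 ± 0.19 on the log2 scale (95% interval from -0.041 to 0.80, unadjusted p = 0.0733, adjusted p = 0.959, edgeR). The effect on LOX is thus not shown to differ between SLC and MLC. The estimates for LOXL1, LOXL2, LOXL3 and LOXL4 were 0.071, 0.19, 0.13 and 0.14.

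The makeup of the family differed with the layer, with a smaller share of LOX and larger shares of LOXL1 and LOXL2 in MLC. Shares here are of read counts over the 5 genes and depend on transcript length, so they are compared between groups and not between genes. LOX held 49.3%, 49.1% and 47.4% of the family's counts in SLC with IL-1β and 25.2%, 24.4% and 24.6% in MLC with IL-1β. In the LOXL2-labelled libraries it held 44.3%, 34.4% and 35.8% in SLC and 23.8%, 19.3% and 18.0% in MLC. The share of LOX thus had the same order over the 4 groups as its level, with no overlap between any of them.

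The mean share of LOXL1 was 19.3% ± 0.725, 27.1% ± 2.75, 29.8% ± 1.18 and 35.2% ± 4.10 (SD, n = 3) in the same order of groups. That of LOXL2 was 22.7% ± 0.929 and 24.03% ± 3.62 in SLC, where the treatments overlapped, and 33.4% ± 2.01 and 32.3% ± 1.32 in MLC. LOXL3 kept to between 9.36% and 12.5% in every library, and LOXL4 to at most 0.150%. The family as a whole took 2748 ± 91.5 CPM (SD, n = 3) in SLC with IL-1β and 2182 ± 113 in SLC with IL-1β+LOXL2. In MLC it took 2455 ± 16.7 and 2426 ± 18.4 CPM. The summed level was therefore highest in SLC with IL-1β and lowest in the SLC LOXL2-labelled libraries.

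**Figure D4:**
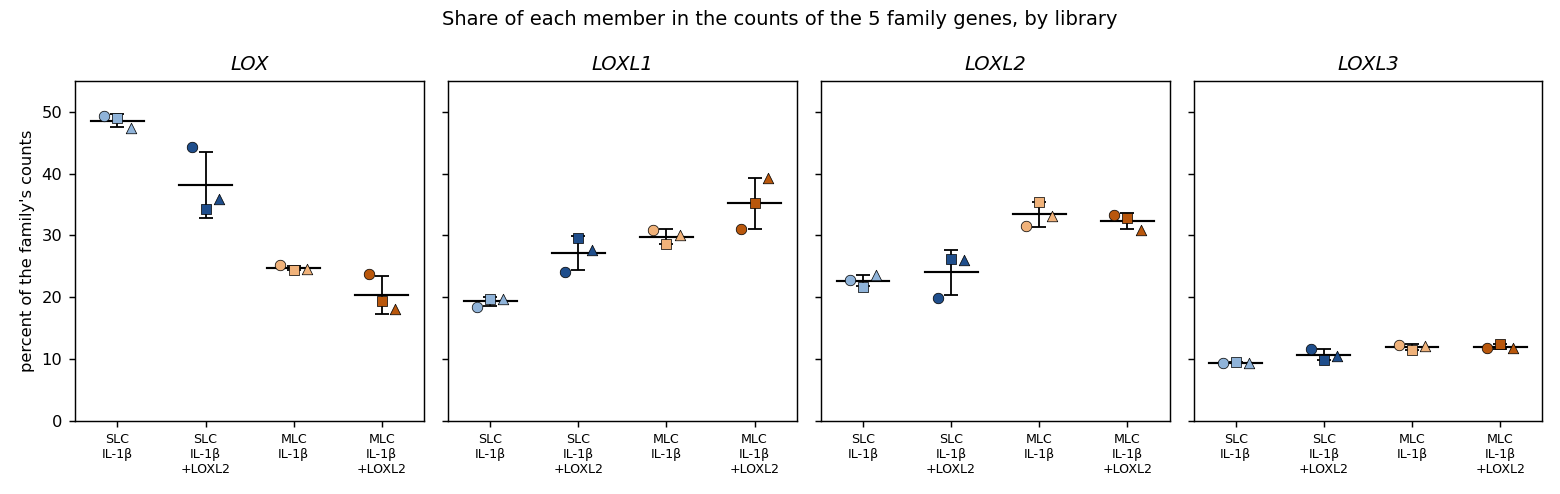
Share of LOX, LOXL1, LOXL2 and LOXL3 in the read counts of the 5 genes (percent, axis from 0) in each library, with the mean and SD of 3 libraries per group; LOXL4, at most 0.150%, is not drawn. LOX falls from 48.6% in SLC with IL-1β to 20.4% in MLC with IL-1β+LOXL2 while LOXL1 goes from 19.3% to 35.2%.

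Over the 12 libraries, LOX ran against the rest of the family. Pearson's r of its log2 CPM was -0.94 with LOXL1, -0.73 with LOXL4, -0.62 with LOXL2 and -0.41 with LOXL3, whereas every pair among the other 4 had a positive r, from 0.59 to 0.82. These values describe libraries that fall into 4 groups and share their layers and treatments, so they carry no test. Between treatments within a layer the signs differed less. In SLC the log2 fold changes of LOX, LOXL2, LOXL3 and LOXL4 were -0.69, -0.27, -0.16 and -0.068. In MLC they were -0.30, -0.066, -0.016 and 0.082. Only LOXL1 opposed LOX in both layers (0.13 in SLC and 0.22 in MLC), and none of these passed. Among 12263 genes compared by Pearson's r over the 12 libraries, the 3 most like LOX were SLC16A1, a lactate transporter (r = 0.997), KCTD12 (r = 0.994) and ZFHX4 (r = 0.990). The genes most like LOXL1 were ECE2, MGLL and VARS (r = 0.988, 0.987 and 0.987). Those most like LOXL2 were SERPINE2, a protease inhibitor of the matrix (r = 0.990), PTGS2, the inducible cyclooxygenase (r = 0.987), and CA12, a carbonic anhydrase (r = 0.983). LOXL3 was closest to MYO1C, PLEC and RNF40 (r = 0.982, 0.9754 and 0.9747), and LOXL4 to GRAMD2, HOXD8 and OGN, the proteoglycan osteoglycin (r = 0.980, 0.977 and 0.971).

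The enzymes need copper, suitable substrates and regulators, and LOX and LOXL1 also need cleavage of their propeptides. Lists of such genes were read beside the family. Of 94 genes listed, 89 were in the tables and 81 or 82 were tested in each comparison. Between treatments in SLC none passed with edgeR, as for all genes, while 29 of 81 passed with DESeq2 (9 higher and 20 lower; 35.8%, against 32.5% of all genes) and 37 of 82 in the fit of all 12 libraries (14 higher and 23 lower; 45.1%, against 41.0%). In MLC 25 passed (30.9%, against 21.6% of all genes), 12 of them higher and 13 lower (9.81% and 11.8% of all genes). None of these MLC calls held in the fit of all 12 libraries, or when replicate 1 or 3 of IL-1β or replicate 2 of the LOXL2-labelled libraries was left out. Between the layers 56 passed with IL-1β (68.3%, against 46.9%) and 35 with IL-1β+LOXL2 (42.7%, against 16.1%). The lists were chosen with these data known, so nothing particular to them follows from these shares.

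Copper supply held the largest treatment difference. ATP7A, the pump that loads copper onto secreted enzymes such as the lysyl oxidases, had 403, 314 and 382 normalized counts in MLC with IL-1β and 165, 60.9 and 47.4 in the LOXL2-labelled libraries. The groups were well apart, and ATP7A fell by 1.98 on the log2 scale (SE 0.33, adjusted p = 0.0190, edgeR). The copper chaperones CCS and ATOX1 rose by 0.52 and 0.40 (adjusted p = 0.0238 and 0.0462, edgeR) and COMMD1, a regulator of copper export, rose by 0.49 (adjusted p = 0.0336, edgeR). In SLC, ATP7A had 358, 543 and 337 normalized counts with IL-1β and 180, 23.3 and 47.3 in the LOXL2-labelled libraries, a difference of -2.32 on the log2 scale that did not pass (adjusted p = 0.0706, edgeR; 0.0273, DESeq2). It passed in the fit of all 12 libraries (adjusted p = 0.0158). Without the first LOXL2-labelled library it was at -3.58 in SLC (adjusted p = 2.88e-05, edgeR) and at -2.77 in MLC (adjusted p = 1.33e-07, edgeR). Of all genes 61.7% and 48.1% passed in those fits. ATOX1 in SLC was at 0.71 (adjusted p = 0.0731, edgeR). The MLC call of ATP7A was lost in the fit of all 12 libraries (adjusted p = 0.174) and without the first IL-1β, the third IL-1β or the second IL-1β+LOXL2 library (0.0780, 0.0889 and 0.107). ATP7A did not pass between the layers, with log2 fold changes of -0.16 with IL-1β (adjusted p = 0.424, edgeR) and 0.14 with IL-1β+LOXL2 (adjusted p = 0.925, edgeR). Of the STEAP metalloreductases, STEAP1 was higher in MLC with IL-1β (0.59, adjusted p = 2.96e-04, edgeR) and STEAP3 lower (-0.40, adjusted p = 0.00376, edgeR; 0.0525 in the fit of all 12 libraries). STEAP2 was higher by 0.20 (adjusted p = 0.0373, edgeR), a call lost with DESeq2 (0.0593), in the fit of all 12 libraries (0.148) and in 5 of the 6 fits without 1 library. STEAP3 was the only gene of the list called with IL-1β+LOXL2 (-0.64, adjusted p = 0.0229, edgeR), and the call was lost in 5 of the 6 fits without 1 library.

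Genes for propeptide cleavage and fiber assembly moved in both directions. In MLC 5 of 19 rose and 5 fell in the LOXL2-labelled libraries, against 9.81% and 11.8% of all genes. Those that fell included the microfibril proteins FBN2 (-0.90, adjusted p = 0.0190, edgeR) and FBN1 (-0.70, adjusted p = 0.0199, edgeR), the protease TLL1 (-0.66; -0.39 and adjusted p = 0.0806 with the trend on gene span removed) and fibronectin, FN1 (-0.54). In SLC, FBN2 had a log2 fold change of -1.14 (adjusted p = 0.0706, edgeR) and MFAP4 of 0.58 (adjusted p = 0.0706, edgeR). Between the layers with IL-1β, 8 of 20 were higher and 9 lower in MLC, against 24.2% and 22.7% of all genes. The elastic fiber genes MFAP5 (-3.10), FBLN5 (-2.05) and FBLN2 (-1.70) and the tenascin gene TNXB (-2.07) were the farthest apart, as they were with IL-1β+LOXL2 (-2.96, -1.80, -1.73 and -2.32). These 4 genes were lower in MLC, as LOX was. TNXB had few counts, between 2.62 and 28.9 normalized counts in the 12 libraries.

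Among the collagen and elastin substrates, COL2A1, the main collagen of hyaline cartilage, was at 0 counts in all 3 SLC libraries with IL-1β and at 387, 194 and 349 normalized counts in MLC. COL27A1, COL11A2 and COL5A3 were higher in MLC by 2.08, 2.03 and 1.91 on the log2 scale. With IL-1β+LOXL2, COL2A1 (9.66), COL5A3 (1.97) and COL27A1 (1.83) were again higher. COL4A1, a basement membrane collagen, was lower there (-1.74). It was also lower with IL-1β, at 1568 to 1788 normalized counts in MLC against 5867 to 6574 in SLC. Between treatments in MLC, elastin, ELN, rose by 0.32 (adjusted p = 0.0275, edgeR) and COL5A1 fell by 0.37 (adjusted p = 0.0323, edgeR). With the trend on gene span removed COL5A1 was at -0.19 and did not pass (adjusted p = 0.110), and the median of the list went from -0.13 to 0.059. In SLC the log2 fold changes of COL5A1 and COL3A1 were -0.70 and -0.32 (adjusted p = 0.0841 and 0.0969, edgeR).

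The hydroxylases and chaperones that prepare collagen lysines and prolines were higher in MLC. With IL-1β 15 of 18 passed (46.9% of all genes did, 24.2% higher), none of them lower, and the median log2 fold change of the list was 0.54, against -0.0069 over all genes. With IL-1β+LOXL2 10 of 18 passed (16.1% of all genes did, 9.27% higher and 6.83% lower), none of them lower, with a median of 0.51. That count was 2 without SLC replicate 3, 5, 2 and 3 without MLC replicate 1, 2 and 3 in turn, and 13 with the replicate block. Of all genes 8.09%, 9.78%, 7.92%, 8.38% and 27.6% passed in these fits, in the same order. P3H2 led both comparisons at 2.15 and 2.26, and PLOD1, a lysyl hydroxylase, was at 0.70 and 0.83. P4HA3 was at 0.77 and 0.72, P3H4 was at 0.72 with IL-1β, and PLOD2, the hydroxylase of collagen telopeptides, was at 1.17 with IL-1β+LOXL2 (adjusted p = 0.0210, edgeR). Between treatments in MLC, PPIB, P3H3 and P3H4 rose by 0.45, 0.41 and 0.35 and PLOD2 fell by 0.40 (adjusted p = 0.0491, edgeR). With the trend on gene span removed, P3H4 (0.16, adjusted p = 0.173) and PLOD2 (-0.15, adjusted p = 0.278) did not pass. The SLC values of PLOD2 and P4HA1 were -0.92 and -0.38 (adjusted p = 0.0706 for both, edgeR). Those of P3H3 and PPIB were 0.54 and 0.68 (adjusted p = 0.0706 and 0.0708, edgeR). In each layer 13 of the 18 genes had a positive value and 5 a negative one, with medians of 0.10 in SLC and 0.097 in MLC.

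Of the known regulators of lysyl oxidase genes, 5 of 20 fell in the LOXL2-labelled MLC libraries, where 11.8% of all genes fell, and none rose. Without 1 library the count was 0 or 1 in 5 of 6 fits. Without the first LOXL2-labelled library 12 fell and 3 rose, in a fit where 48.1% of all genes passed. EPAS1, a hypoxia-inducible factor subunit, fell by 0.73 (adjusted p = 0.0219, edgeR), SP1 by 0.53, SMAD3 by 0.37 and TGFBR1 by 0.36. The median of the list was -0.26 in MLC and -0.41 in SLC, against 0.0079 and 0.013 over all genes. With the trend on gene span removed, the medians were -0.068 in MLC and -0.15 in SLC, and in MLC 2 genes of the list passed, without SMAD3 (adjusted p = 0.355) and TGFBR1 (adjusted p = 0.230). In SLC, EPAS1 was at -1.40 and its partner ARNT at -0.60 (adjusted p = 0.0706 for both, edgeR). Between the layers with IL-1β, 4 of 20 regulators were higher and 8 lower in MLC, against 24.2% and 22.7% of all genes. In the fit of all 12 libraries 4 were higher and 2 lower, where 25.6% of all genes passed. SNAI1 was higher in MLC (1.26), as was TGFB1 (0.56), and SMAD3 (-0.58) and TGFBR1 (-0.52) were lower. With IL-1β+LOXL2, SNAI1 (1.25, adjusted p = 0.0192, edgeR), TGFB1 (0.57, 0.0276) and HIF1A (0.62, 0.0495) were higher and SMAD3 lower (-0.54, 0.0413). Of 20 regulators tested 3 were thus higher and 1 lower, against 9.27% and 6.83% of all genes. No regulator passed without SLC replicate 3, MLC replicate 2 or MLC replicate 3, and 1 passed without MLC replicate 1. Without SLC replicate 1, 3 were higher and 2 lower, and without SLC replicate 2, 2 were higher and 1 lower.

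The interaction passed for no gene of these lists. AOC2, a copper amine oxidase outside the family and the only gene of its list tested, was lower in MLC with IL-1β+LOXL2 (-1.20, adjusted p = 0.0141, edgeR) and did not pass with IL-1β (-0.44, adjusted p = 0.138, edgeR). AOC2 had few counts, between 21.2 and 62.5 normalized counts over the libraries. The IL-1β+LOXL2 call was lost without SLC replicate 3, MLC replicate 2 or MLC replicate 3 and kept without each of the others. Its log2 fold change between treatments was 0.098 in SLC and -0.65 in MLC (adjusted p = 0.715 and 0.116, edgeR).

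The treatment calls in these lists moved with single libraries. In SLC 58 genes passed without the first LOXL2-labelled library, 24 higher and 34 lower (71.6%, against 61.7% of all genes). None passed without any other library, as for all genes. In MLC the count was 0, as for all genes, when replicate 1 or 3 of IL-1β or replicate 2 of the LOXL2-labelled libraries was left out. It was 6 without the second IL-1β library (7.41%, against 5.95% of all genes) and 4 without the third LOXL2-labelled one (4.94%, against 3.43%). Without the first LOXL2-labelled one it was 48 (59.3%, against 48.1%). In the fit of all 12 libraries it was 0, as for all genes. In SLC that fit called 45.1% of the list genes, against 41% of all genes, and DESeq2 called 35.8%, against 32.5%. The layer counts with IL-1β ranged from 51 to 58 when 1 library was left out (63% to 70.7%, against 38.5% to 46.2% of all genes). They were 42 in the fit of all 12 libraries (51.2%, against 25.6%) and 61 without a filter on low counts (69.3%, against 34.7%). With IL-1β+LOXL2 they were 16 without the third SLC library (19.3%, against 8.09% of all genes). Without MLC replicate 1, 2 and 3 in turn they were 22, 15 and 17 (26.5%, 18.1% and 20.5%, against 9.78%, 7.92% and 8.38%). They were 47 without the first SLC library (57.3%, against 32.9%) and 34 without the second (41.5%, against 14.1%).

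**Figure D5:**
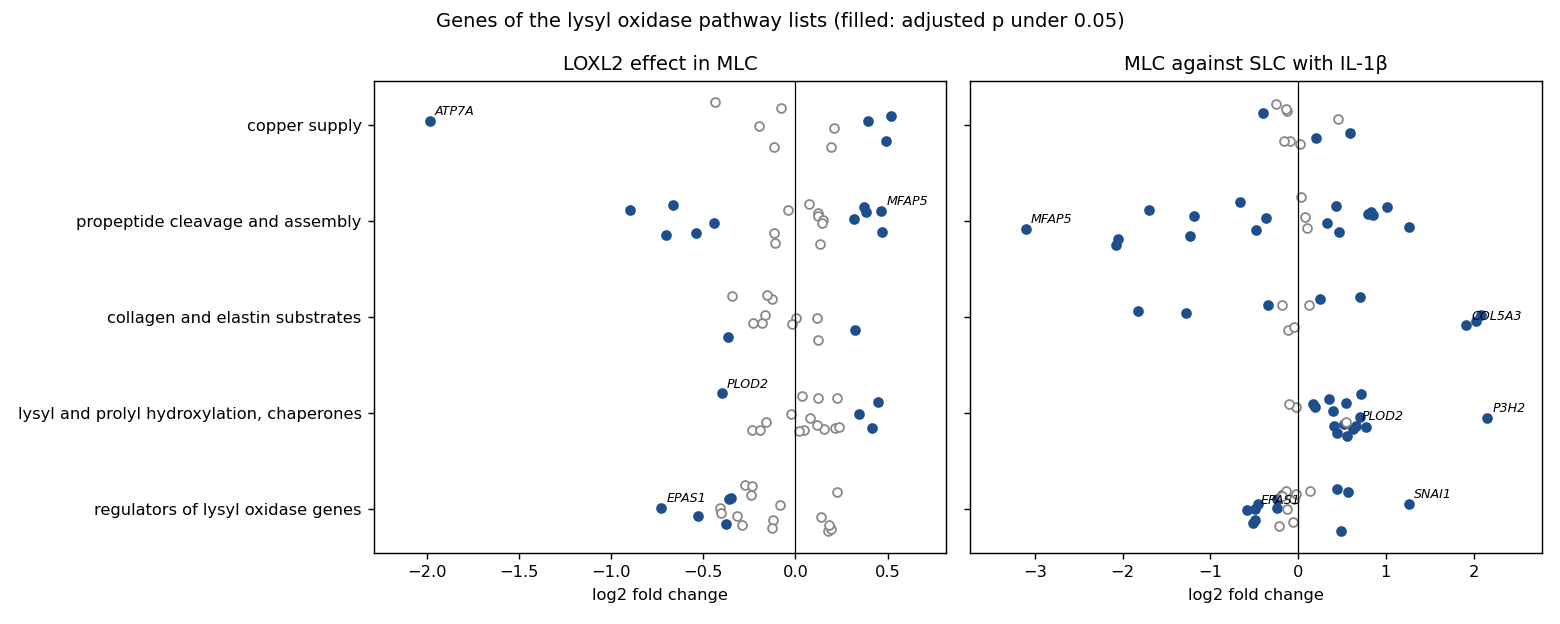
Log2 fold changes of the genes in 5 pathway lists (rows, with vertical jitter) for the treatment in MLC (left) and for MLC against SLC with IL-1β (right); filled points have an adjusted p under 0.05, and COL2A1, with no count in SLC, is not drawn. ATP7A stands alone at -1.98 on the left, and on the right 15 of the 18 hydroxylation and chaperone genes are filled and above 0.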

How the data were processed

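Messenger RNA of 12 goat TMJ cell cultures was sequenced as paired ends. Per the labels and the study's methods, the authors mapped reads to ARS1.2 with HISAT2 and deposited raw counts per gene from featureCounts; the counting strand and the handling of shared reads are not given in the sources used here, so LOXL3 and HTRA2 could share reads. The 2 tables, 1 per layer, were joined by row. Genes with low counts were removed with edgeR's filterByExpr (minimum count 10, total 15) within the libraries of each comparison. Differences were tested by the quasi-likelihood method of edgeR 4.0.16 (R 4.3.3; TMM scaling, Benjamini-Hochberg adjustment over all genes tested, threshold 0.05), and with DESeq2 1.42.0 as an alternative. Treatment and layer comparisons used the 6 libraries concerned and the interaction used all 12. Normalized counts were counts divided by DESeq2 size factors over all 12 libraries. Intervals of 95% came from the quasi-likelihood degrees of freedom. With libraries of 14158607 to 28931652 counts, LOXL4 alone of the members was limited by depth. Replicates of a group differed by more than sampling noise, so none was merged. On simulated data with 200 genes changed by 2 on the log2 scale (median estimates from -2.02 to 2.02), more than any member, all 200 were recovered in each of the 5 comparisons, with 6 to 15 false calls. The changed genes were drawn from well-counted ones only, and no simulated library was made to stand apart. The recovery therefore says nothing about genes as low as LOXL4, smaller changes or an outlying library.

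The members and the gene lists were chosen with earlier results of these data known. Named genes were the 5 members, ATP7A, up to 4 called genes of each list with the largest change (where none was called, the 2 with the smallest p, as values), and the 3 genes closest to each member. Shares were computed on counts, since no transcript lengths were used here, and levels were not compared between genes. Deviations of same-numbered libraries from their group means had a correlation over 0.1 in all 3 pairs only between the LOXL2-labelled groups of the 2 layers (0.605, 0.206 and 0.168), so the numbers were taken to pair that comparison, from the data and not from the labels. Over all pairs of groups 8 of 18 were over 0.1 (range -0.23 to 0.61). Libraries with different numbers were not compared in this way, so whether the numbers mark a true pairing was not tested.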

Additional observations from a re-analysis of the deposited data

How the results depend on the processing

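All signs of the members' layer differences were kept under every alternative run. Other alternatives moved the counts of members called between treatments from 0 to 1 in SLC with DESeq2 and to 2 in the fit of all 12 libraries, and from 0 to 1 in MLC without a filter on low counts, with DESeq2 and with the gene span trend removed. Leaving out 1 library gave 0 to 2 members in SLC, 0 to 2 in MLC, 4 to 5 between layers with IL-1β, 0 to 5 with IL-1β+LOXL2 and 0 for the interaction. In the comparisons not taken as paired, the replicate block called 1 member in MLC (LOX, -0.31, adjusted p = 0.0268, edgeR). With that block LOXL3 was lost between layers with IL-1β (adjusted p = 0.0580), and no other member's call changed. With the gene span trend removed, LOXL2 between layers with IL-1β+LOXL2 had an adjusted p of 0.0508 and its treatment value reversed to 0.12 in SLC and 0.19 in MLC. Values near 0 also reversed when 1 library was left out. LOXL4 ranged from -0.42 to 0.15 in SLC (0.10 and 0.024 in the other reversals) and from -0.045 to 0.17 in MLC (reversed also at -0.032), and from -0.073 to 0.48 in the interaction (reversed also at -0.036). LOXL3 in MLC ranged from -0.045 to 0.0028 (reversed also at 0.0021), and LOXL1 in the interaction from -0.0078 to 0.15. The causes were not tested.

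Over all genes, the count called was 0 in SLC but 4234 with DESeq2, 5965 in the fit of all 12 libraries and 8849 when the first LOXL2-labelled library was left out. In MLC it was 2958, but 0 in the 12-library fit, 1833 with the span trend removed and 0 to 6653 without 1 library. Between layers it was 6548 with IL-1β (3715 in the 12-library fit), and 2268 with IL-1β+LOXL2 (3887 with the replicate block, 4199 in the 12-library fit, 1140 to 4679 without 1 library). The counts of pathway genes under each alternative were added after seeing the data. Scaling by transcript length was not run, since no lengths were used here. Of the members, depth limited LOXL4, and 81 or 82 of the 89 list genes found had enough counts to be tested.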
